A study of Mus musculus with 6 samples.

Results

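Type A intercalated cells are taken here as the cells that the deposited annotation of a mouse kidney study places in its class AIC. The class held 340 of 22154 cells and 423498 counts. It was studied in 3 libraries from mice given furosemide and 3 from mice given vehicle, and 181 of its cells came from furosemide libraries and 159 from vehicle libraries. All mice were C57BL/6J, labelled WT, aged 16 weeks, and ate a gel diet with 104 µmol sodium per kcal for 1 week. The diet carried 70 mg furosemide per kg body weight in one group and vehicle alone in the other. Each kidney cell was captured on a barcoded bead (BD Rhapsody), and counts are given for a chosen panel of 456 genes, so a level here is a gene's share of the panel counts, scaled to a fixed total (CPM). The labels do not say whether the libraries came from separate animals, so every p-value measures only the spread between these libraries.

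Intercalated cells are the acid-base cells of the connecting tubule and collecting duct. Type A cells pump protons into the urine through a vacuolar proton pump on the apical side and return bicarbonate to the blood through the anion exchanger AE1, encoded by Slc4a1. They also pass ammonia through the Rhesus proteins Rhbg and Rhcg. Type B cells run in the opposite direction and secrete bicarbonate through the apical exchanger pendrin, encoded by Slc26a4. Furosemide blocks the sodium-potassium-chloride cotransporter upstream in the thick ascending limb, so that more sodium reaches these cells. Connecting tubule cells, their neighbours, carry calcium with the binding proteins encoded by Calb1 and S100g.

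The 4 label markers stood at high levels in the class. Slc4a1 averaged 30138 ± 9295 plain CPM in AIC (SD over 6 libraries), against 22082 ± 6224 in the class OMCD principal and 2518 ± 1191 in type B cells (BIC). In the remaining 12 classes it lay at 566 plain CPM or less. Rhbg, the basolateral ammonia transporter, averaged 35114 ± 5438 plain CPM in AIC and 31611 ± 3692 in BIC, which lay within their spread, and 12927 in the connecting tubule class (CNT). These orders describe the classes and were not tested, because the classes were built from the same counts.

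For the other markers AIC was not the highest class. Aqp6, a vesicle channel of type A cells, averaged 24285 ± 5841 plain CPM in AIC and 28454 ± 5196 in OMCD principal, again within their spread. Atp6v1g3, a kidney subunit of the vacuolar pump, averaged 53210 ± 6169 plain CPM in AIC, 80689 ± 10598 in BIC and 29136 ± 4153 in OMCD principal. Slc26a4 averaged 5781 ± 3855 plain CPM in AIC, against 50830 ± 2635 in BIC. S100g averaged 126574 ± 38954 plain CPM in AIC, against 16309 in BIC and 392658 in CNT. The class thus held all 4 markers of its label, 2 of them at a higher mean in another class, together with a large amount of a connecting tubule transcript.

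**Figure D1:**
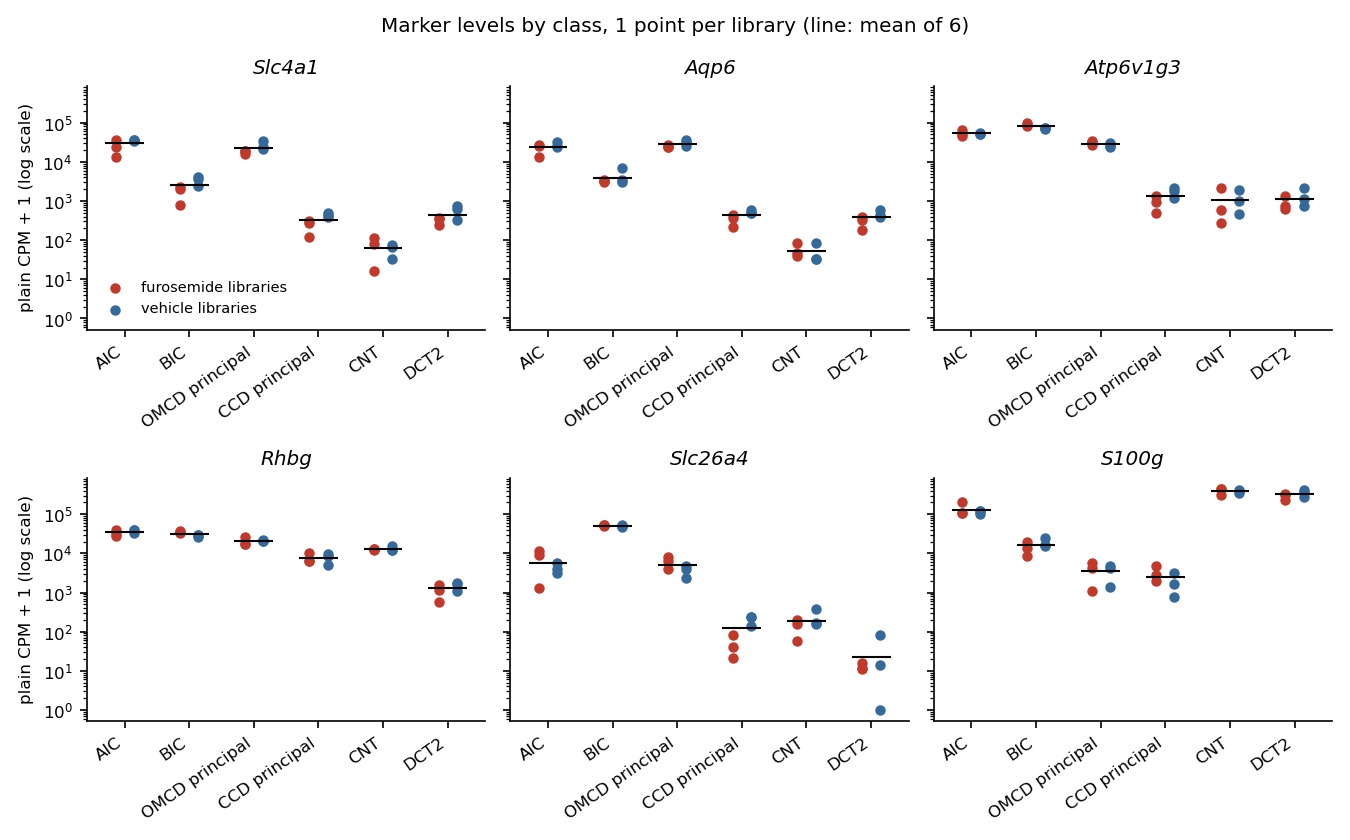
Level of 6 genes (plain CPM + 1, log axis) in 6 classes, each point 1 library, furosemide on the left and vehicle on the right of each class, with a line at the mean of all 6 libraries. Slc4a1 and Aqp6 are high in AIC and OMCD principal, Slc26a4 is highest in BIC, and S100g in AIC lies between BIC and CNT.

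A second clustering in the same annotation splits the class and shows where the S100g counts lay. Of the 340 cells, 303 fell in a cluster named AIC sub2, 34 in a cluster named CNT sub1 and 3 in a cluster named BIC. None fell in the cluster named AIC, which instead held 241 OMCD principal cells, and AIC sub2 also held 132 OMCD principal and 22 DCT2 cells. The 34 CNT sub1 cells were 10% of the class but gave 27.6% of its counts, with a median of 3087.5 counts per cell against 888 in the 303 cells. These 34 are called the connecting tubule-cluster cells, and the 303 the AIC sub2 cells.

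The connecting tubule-cluster cells had little of the type A exchanger, and of the 3 listed type B genes Slc26a4 and Insrr were higher in them and Slc4a9 lower. Over their pooled counts, Slc4a1 stood at 3300 plain CPM in them and 41057 in AIC sub2 cells, and Aqp6 at 3727 in them and 33254 in AIC sub2 cells. Slc26a4 stood at 17371 plain CPM in them and 539 in AIC sub2 cells. Insrr, the alkali-sensing receptor kinase of intercalated cells, stood at 3462 plain CPM in them and 343 in AIC sub2 cells. Slc4a9, a basolateral exchanger of intercalated cells known as AE4, stood at 2924 plain CPM in them and 6699 in AIC sub2 cells. S100g stood at 276153 plain CPM in the connecting tubule-cluster cells and 63279 in AIC sub2 cells. Hsd11b2, the enzyme that keeps cortisol-like steroids off the mineralocorticoid receptor in principal and connecting cells, stood at 37153 plain CPM in the connecting tubule-cluster cells and 2902 in AIC sub2 cells.

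Cell by cell, Slc26a4 had more counts than Slc4a1 in 24 of the 34 connecting tubule-cluster cells, and Slc4a1 had more than Slc26a4 in 300 of the 303 AIC sub2 cells. Counts are not scaled for transcript length, so this ordering of a pair of genes is a description of counts. Slc4a1 took a median of 0% of the counts of a connecting tubule-cluster cell and 4.41% of those of an AIC sub2 cell, while S100g took 23.9% in connecting tubule-cluster cells and 1.33% in AIC sub2 cells. Atp6v1g3 and Rhbg were counted in all 340 cells.

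**Figure D2:**
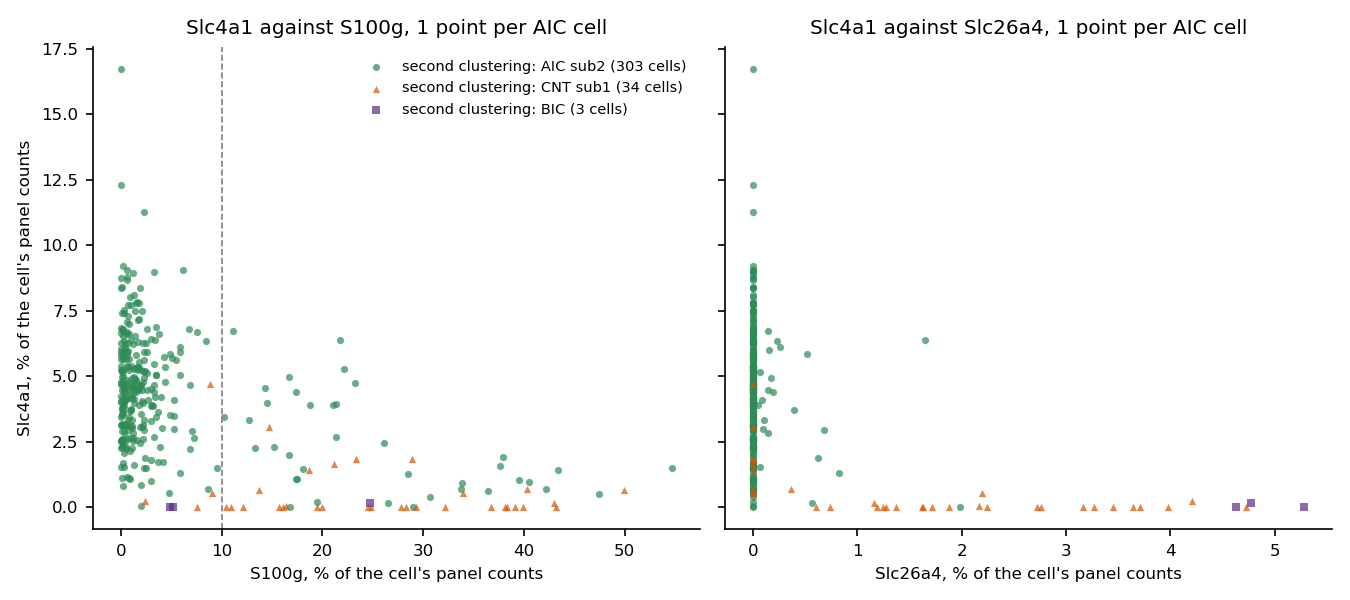
Each point is 1 AIC cell, with Slc4a1 (% of the cell's counts) against S100g (left) and Slc26a4 (right), coloured by the second clustering, and a dashed line at 10% S100g. Of the 34 connecting tubule-cluster cells 30 lie above the dashed line, most at low Slc4a1, a further 38 of the 303 AIC sub2 cells also lie above it, and Slc26a4 is at 0 in most AIC sub2 cells.

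The connecting tubule-cluster cells were not spread evenly over the libraries. They numbered 7, 13 and 5 in furosemide libraries 2, 4 and 6, against 3, 4 and 2 in vehicle libraries 1, 3 and 5. They gave 45.5%, 40.9% and 19.0% of the AIC counts of the furosemide libraries, against 10.9%, 26.2% and 25.04% of those of the vehicle libraries. Libraries overlapped between treatments in the share of counts (two-sided exact permutation p = 0.3). As a share of all cells of a library they averaged 0.221% with furosemide and 0.0828% with vehicle, with no overlap (exact permutation p = 0.1, the lowest value open to 3 against 3 libraries, so that 0.05 cannot be reached). A sum over the class mixes the number of such cells with their counts per cell, so the main treatment values are also given over the 303 AIC sub2 cells.

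Among the 303 AIC sub2 cells a smaller group again carried much S100g. In 38 of them S100g took over 10% of the cell's counts, with 9.51% in the cell just under this limit, 10.2% in the cell just above it and 5 cells between 8% and 12%. They numbered 7, 6 and 11 in furosemide libraries 2, 4 and 6, against 11, 1 and 2 in vehicle libraries 1, 3 and 5, so vehicle library 1 lay with the furosemide libraries. Pooled over the 38 cells, Slc4a1 stood at 18455 plain CPM, against 46047 in the other 265. Slc12a3, the thiazide-sensitive cotransporter of the distal convoluted tubule, stood at 18234 plain CPM in the 38 cells and 963 in the other 265. Calb1 stood at 30064 plain CPM in the 38 cells and 1337 in the other 265. The limit of 10% was set after the values were seen.

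Markers of some other cell types were scarce in the class. Genes of the proximal tubule took 0.0342% of its counts, with Gatm and Fabp1 at 0, and podocyte genes 0.00142%, with Nphs1 at 0. Thick ascending limb genes took 0.381% (0.133% to 0.459% in furosemide libraries and 0.150% to 0.866% in vehicle libraries). The thin limb list took 3.02%, nearly all of it Cldn4, a claudin that 96.2% of AIC cells held, while Slc14a2 was at 0. Principal cell genes took 2.16% (1.72% to 2.89% with furosemide and 1.45% to 2.31% with vehicle), and not all of them were scarce. The sodium channel subunit genes Scnn1b and Scnn1g were counted in 96.5% and 52.9% of AIC cells and Hsd11b2 in 40.9%, while the water channel gene Aqp2 had 5 counts. The 4 connecting tubule genes took 11.7% to 22.3% of the AIC counts of furosemide libraries and 10.4% to 13.0% of those of vehicle libraries.

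Furosemide library 2 stood apart in several of these measures. It held 35 AIC cells, the fewest, and had the lowest type A marker share, 10.1% of AIC counts against 13.3% to 16.6% in the other 5 libraries. Immune genes took 0.269% of its AIC counts, against at most 0.00693% in any other library. The Calb1, Slc4a1, Slc26a4, Insrr, Timp3 and H2-Aa results are given with and without it. Library totals ran over 3051 to 4439 cells and 4819988 to 7635509 counts, with 43306 to 86611 counts in AIC cells. Of the AIC cells 4 shared a cell number with a cell of another library (1.18%, against 1.77% of all cells).

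The 15 genes highest in AIC relative to the mean of the other 14 classes included the 4 label markers. By this ratio of mean plain CPM, given as a description, Slc4a1 led at 16.1-fold, followed by Aqp6 at 9.96-fold and Guca2a, which encodes the gut and kidney peptide guanylin, at 7.83-fold. Clcn5, the endosomal chloride-proton exchanger, stood at 7.01-fold, Rhbg at 6.50-fold and Atp6v1g3 at 6.47-fold. Slc4a9 stood at 5.88-fold and the vacuolar pump subunit Atp6v1c2 at 5.23-fold.

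Several of these were shared with type B cells. Guca2a averaged 4018 plain CPM in AIC and 3810 in BIC. Bsnd, which encodes barttin, averaged 2979 plain CPM in AIC and 3697 in BIC. Atp6v1c2 was lower in AIC, at 15007 plain CPM against 26511 in BIC, as was Slc4a9, at 5770 in AIC against 9596 in BIC. Slc4a1 stood at 11.97 times and Aqp6 at 6.26 times their BIC level. The list also held Phlda1, Slc2a4 (the insulin-regulated glucose transporter), Nedd4l (a ubiquitin ligase that acts on the epithelial sodium channel) and Tmem213, at 3.28-fold to 3.75-fold. Cd8a, a T cell co-receptor gene, was listed at 4.38-fold, but stood at 581 plain CPM in the 34 connecting tubule-cluster cells and at 6.66 in the AIC sub2 cells.

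AIC cells made up 1.15% (exact 95% binomial interval 0.800% to 1.59%), 1.60% (1.25% to 2.01%) and 2.09% (1.65% to 2.61%) of the cells of furosemide libraries 2, 4 and 6. They made up 1.76% (1.38% to 2.22%), 1.39% (1.02% to 1.85%) and 1.11% (0.801% to 1.51%) of vehicle libraries 1, 3 and 5. The treatments overlapped, and furosemide library 2 was as low as vehicle library 5. Means were 1.61% ± 0.472 with furosemide and 1.42% ± 0.326 with vehicle (SD, n = 3 each), a log2 ratio of 0.18 (two-sided exact permutation p = 0.6). Intervals cover counting error only. Tested on numbers of cells with edgeR, the log2 difference was 0.18 (quasi-likelihood test, Benjamini-Hochberg adjusted p = 0.718 over 15 classes). The ratio was near 0 when thick ascending limb cells, which were fewer with furosemide (log2 -0.84), were left out of the total (log2 ratio -0.0033). CNT and DCT2 cells, which were more numerous with furosemide (log2 0.82 and 1.06), stayed in that total. The ratio turned to -0.24 over every cell that the second clustering names AIC (2.96% of cells with furosemide and 3.50% with vehicle, exact permutation p = 0.2). That set also holds OMCD principal and DCT2 cells. Over the cells of the class AIC in those clusters alone the ratio was 0.087 (1.39% with furosemide and 1.31% with vehicle, exact permutation p = 0.9).

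**Figure D3:**
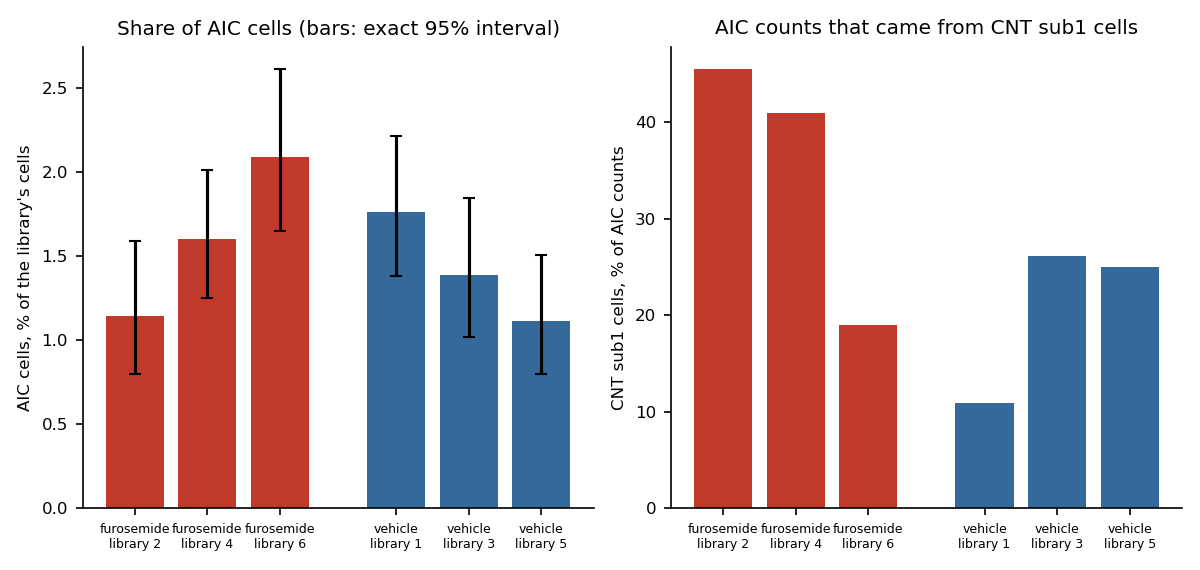
Left: AIC cells as % of each library's cells, with exact 95% binomial intervals. Right: % of AIC counts that came from the connecting tubule-cluster cells. The shares of cells overlap between treatments, and furosemide libraries 2 and 4 hold the highest shares of counts, 45.5% and 40.9%.

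Across the genes of the class, no gene passed the test for a change with furosemide. Of 219 genes with enough counts, 0 (0%) were called by edgeR's quasi-likelihood test at a Benjamini-Hochberg adjusted p under 0.05. At an unadjusted p under 0.05 there were 13 genes (5.94%), 9 higher (4.11%) and 4 lower (1.83%). Every furosemide library lay on one side of every vehicle library for 28 genes (12.8%), 14 higher (6.39%) and 14 lower (6.39%). Over the AIC sub2 cells 0 of 198 genes (0%) were called, and 8 (4.04%) had an unadjusted p under 0.05, 7 higher (3.54%) and 1 lower (0.505%). Of those 198 genes 22 (11.1%) did not overlap, 10 higher (5.05%) and 12 lower (6.06%). In simulated counts of this size the test recovered 11 of 21 genes changed by a log2 of 1 and 27 of 33 changed by a log2 of 2. Those counts were drawn gene by gene around common means. They hold no shift in cell make-up shared by the genes of a library, so recovery in the real counts may differ.

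The gene with the smallest p was Calb1, which encodes the calcium buffer calbindin-D28k. It had 20330, 11259 and 10705 TMM-scaled CPM in furosemide libraries 2, 4 and 6, against 4282, 2703 and 4853 in vehicle libraries 1, 3 and 5. Every furosemide library was higher than every vehicle library, and library 2 was the highest. The means were 14098 ± 5404 TMM-scaled CPM with furosemide and 3946 ± 1113 with vehicle (SD, n = 3 each), a log2 difference of 1.86 ± 0.335 (SE), which did not pass edgeR's quasi-likelihood test after Benjamini-Hochberg adjustment (adjusted p = 0.177). It was 1.48 without furosemide library 2 (adjusted p = 0.112). Calb1 passed with DESeq2 (1.85, adjusted p = 0.000233), with each cell thinned to 500 counts (1.98, 0.0289) and without the 10% of cells highest in markers of other cell types, which include Calb1 itself (2.54, 0.0154), and over all alternatives the adjusted p lay between 0.000233 and 0.983.

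Over the AIC sub2 cells, Calb1 had 21645, 7713 and 6855 TMM-scaled CPM in furosemide libraries 2, 4 and 6, against 4864, 895 and 1732 in vehicle libraries 1, 3 and 5. In furosemide library 2, Calb1 took 8.71% of the 3215 counts of 1 AIC sub2 cell and 5.50% of the 4946 counts of another. These 2 cells held most of the 692 Calb1 counts of the AIC sub2 cells of that library. The libraries again did not overlap (log2 difference 2.32 ± 0.763, adjusted p = 0.736), and the 38 S100g-rich cells carried most of the Calb1 counts in 4 of the 6 libraries. They held 95.5%, 77.9% and 78.6% in furosemide libraries 2, 4 and 6, against 90.1%, 9.30% and 24.6% in vehicle libraries 1, 3 and 5. In the other 265 cells Calb1 stood at 1801, 1983 and 1663 plain CPM in furosemide libraries 2, 4 and 6, against 622, 873 and 1510 in vehicle libraries 1, 3 and 5. These rest on 31, 88 and 91 counts with furosemide and 34, 39 and 46 with vehicle, and the lowest furosemide library lay just above the highest vehicle library.

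The share of AIC cells with a Calb1 count was 62.9%, 62.0% and 60.0% in furosemide libraries 2, 4 and 6, against 33.3%, 52.2% and 36.6% in vehicle libraries 1, 3 and 5. All furosemide libraries were higher (exact permutation p = 0.1, the smallest possible). With cells thinned to 500 counts the means were 54.3% ± 8.17 with furosemide and 30.3% ± 5.90 with vehicle (SD, n = 3 each, exact permutation p = 0.1). Over AIC sub2 cells they were 54.7% ± 2.10 with furosemide and 36.4% ± 7.54 with vehicle (SD, n = 3 each, exact permutation p = 0.1). In proximal s1/s2 cells, which are not known for this gene, the shares were 9.38% ± 1.52 with furosemide and 4.40% ± 1.29 with vehicle (SD, n = 3 each). Median depth was 920 counts per AIC cell with furosemide and 952 with vehicle, and 823 and 785 counts per proximal s1/s2 cell with furosemide and with vehicle.

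Mean Calb1 was higher with furosemide in every class, so the difference was not confined to AIC. This held for plain CPM in 15 of 15 classes, and the libraries lay apart in 12, all but Immune, Thin Limb and mystery cells. In AIC it averaged 13296 plain CPM with furosemide and 4145 with vehicle, a ratio of 3.21. In CNT it averaged 44089 plain CPM with furosemide and 13955 with vehicle, a ratio of 3.16. The ratio was 2.35 in CCD principal cells, and 2.93 in proximal s1/s2 cells at 169.8 plain CPM with furosemide and 57.9 with vehicle. It was lower in OMCD principal cells (1.95), DCT (1.60) and DCT2 (1.11). Over all classes it ran from 1.03 in Immune to 7.33 in Podocytes/Glom. Connecting tubule cells, whose Calb1 level was among the highest, made up 6.41% of furosemide and 3.63% of vehicle libraries, and DCT2 cells 2.999% of furosemide and 1.43% of vehicle libraries. How much RNA of such cells entered the AIC values was not tested. The treatment effect in AIC exceeded that in BIC by a log2 of 0.65 (95% interval -0.46 to 1.77). It exceeded that in OMCD principal cells by 0.82 (-0.29 to 1.92) and that in CCD principal cells by 0.69 (-0.60 to 1.98). Each of these intervals includes 0.

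**Figure D4:**
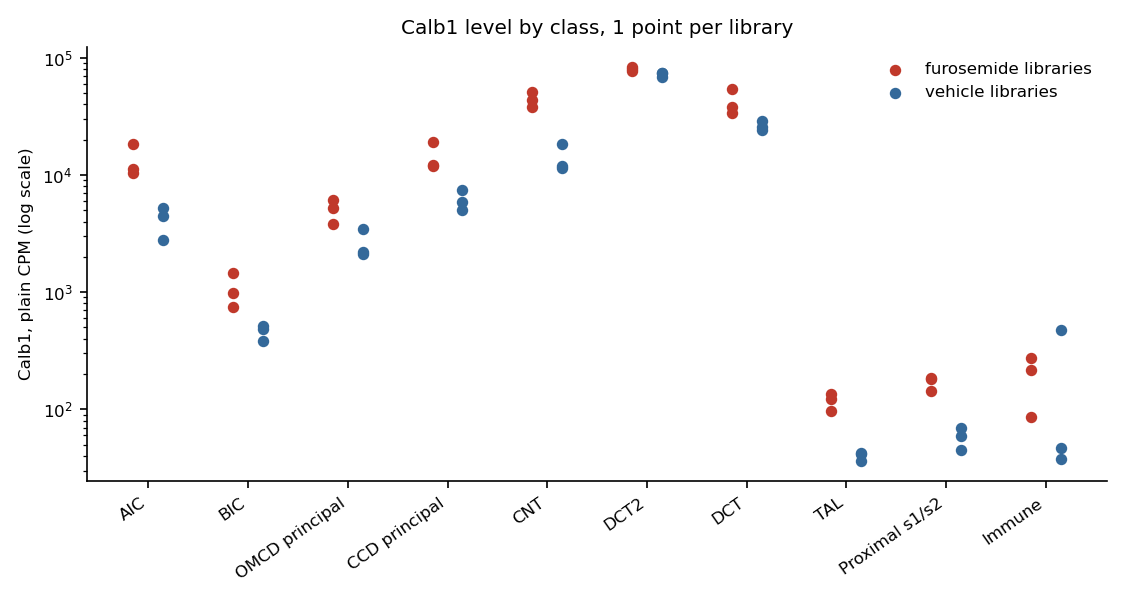
Calb1 (plain CPM, log axis) in 10 classes, each point 1 library, furosemide on the left and vehicle on the right of each class. The AIC points with furosemide average 13296 and those with vehicle 4145, and the same direction is seen in classes of far lower level.

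No tested gene of the proton pump passed. Atp6v1g3 had 52493, 50856 and 66208 TMM-scaled CPM in furosemide libraries 2, 4 and 6, against 52373, 48942 and 48547 in vehicle libraries 1, 3 and 5 (log2 difference 0.19, adjusted p = 0.763). Only furosemide library 6 lay clearly above the rest. Atp6v1c2 had 13483, 13619 and 13620 TMM-scaled CPM with furosemide, against 17652, 14146 and 16952 with vehicle. All furosemide libraries were lower, by a log2 of -0.24 ± 0.138 (SE, adjusted p = 0.763), but the treatments overlapped over the AIC sub2 cells. Atp6ap2, the pump-associated prorenin receptor, differed by -0.08 and Atp4a, the gastric type of potassium-proton pump, by 0.43, with adjusted p of 0.918 and 0.763. Of 5 listed pump genes in the panel 4 were tested, with 2 above 0 and 2 below, a median log2 difference of 0.06 against -0.03 over all 219 genes, and Atp12a had too few counts.

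The ammonia channels did not pass either. Rhbg had 30495, 31705 and 40859 TMM-scaled CPM in furosemide libraries 2, 4 and 6, against 37976, 38895 and 30172 in vehicle libraries 1, 3 and 5, and the treatments overlapped fully (log2 difference -0.04, 95% interval -0.44 to 0.35, and -0.04 over AIC sub2 cells). Rhcg, the apical and basolateral ammonia channel, differed by -0.08 (95% interval -0.43 to 0.26). The glutamine transporter Slc38a3 had too few counts to test.

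The type A exchanger itself did not pass. Slc4a1 had 15292, 24485 and 36586 TMM-scaled CPM in furosemide libraries 2, 4 and 6, against 35048, 32843 and 34270 in vehicle libraries 1, 3 and 5. Vehicle libraries were alike, while furosemide libraries ran over a wide range with library 2 lowest and library 6 highest (log2 difference -0.41 ± 0.281 SE, adjusted p = 0.763). Single libraries moved this value, to -0.16 without furosemide library 2 (adjusted p = 0.926) and -0.76 without furosemide library 6 (adjusted p = 0.151). Over the AIC sub2 cells Slc4a1 had 25336, 37926 and 46341 TMM-scaled CPM with furosemide, against 42421, 44011 and 45121 with vehicle. That difference was -0.23, smaller than over the whole class. The share of AIC cells with a Slc4a1 count was 82.9%, 90.1% and 96.0% with furosemide and 97.2%, 91.3% and 95.1% with vehicle (exact permutation p = 0.3, adjusted p = 1), against 0.985% of proximal s1/s2 cells with furosemide and 0.585% with vehicle.

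Slc4a9 was lower with furosemide in every library without passing the test. It had 3792, 5786 and 4742 TMM-scaled CPM in furosemide libraries 2, 4 and 6, against 6242, 6473 and 7160 in vehicle libraries 1, 3 and 5 (log2 difference -0.46 ± 0.205 SE, adjusted p = 0.732). Over the AIC sub2 cells the libraries again did not overlap (-0.49, adjusted p = 0.736). Slc26a4 had 12904, 9095 and 1297 TMM-scaled CPM with furosemide, against 5355, 3950 and 2955 with vehicle. In the furosemide libraries this was the order of the share of AIC counts from connecting tubule-cluster cells. In vehicle libraries 1, 3 and 5 it was not, as that share was 10.9%, 26.2% and 25.04%. The 3 cells of the cluster BIC were in vehicle libraries 1 and 3, and the cause was not tested. The log2 difference of Slc26a4 was 0.95 over the class (0.35 without furosemide library 2 and 1.45 without furosemide library 6), and 2.55 over AIC sub2 cells and -0.15 over those without furosemide library 2. Only 22 of the 303 AIC sub2 cells had a Slc26a4 count. Most such counts in library 2 were in 1 cell of 4885 counts, with 1.99% of them Slc26a4 and 0% Slc4a1. The value of 2.55 thus rests largely on that cell.

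Among chloride genes, Bsnd had 2616, 2569 and 2568 TMM-scaled CPM in furosemide libraries 2, 4 and 6, against 2975, 3995 and 3041 in vehicle libraries 1, 3 and 5. Its furosemide libraries were all lower (log2 difference -0.36, adjusted p = 0.763), as they were over AIC sub2 cells (-0.27, adjusted p = 0.976). Clcn5 differed by -0.57 (adjusted p = 0.732) with overlapping libraries, and by -0.57 over AIC sub2 cells. Of 11 listed bicarbonate and anion exchange genes in the panel 7 were tested, 2 above 0 and 5 below, with a median of -0.36 (-0.23 over AIC sub2 cells). Over all 219 tested genes 103 lay above 0 and 116 below. Slc4a4, Slc4a8 and Slc26a11 had at most 14 counts in any library and were not tested, and Cftr had 0 counts.

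The remaining intercalated genes gave smaller differences over AIC sub2 cells than over the class, apart from Kcnj16 and Nr3c2. Over all AIC cells, 5 of 6 tested identity genes lay above 0, against 103 of all 219 tested genes. Their median log2 difference was 0.50, and over AIC sub2 cells it was 0.07. Insrr differed by 0.91 over the class and 0.10 over AIC sub2 cells, and the serine protease inhibitor gene Spink8 by 0.49 and 0.16. The basolateral potassium channel gene Kcnj10 differed by 0.57 and 0.02, and its partner Kcnj16 by 0.51 and 1.06. Nr3c2, the mineralocorticoid receptor, differed by 0.01 and 0.04, and Aqp6 by -0.17 and -0.02. Over the class without furosemide library 2, Insrr differed by 0.52, and over AIC sub2 cells without it by -0.30. The angiotensin receptor gene Agtr1a had too few counts, and none of 8 listed carbonic anhydrase genes was in the panel.

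**Figure D5:**
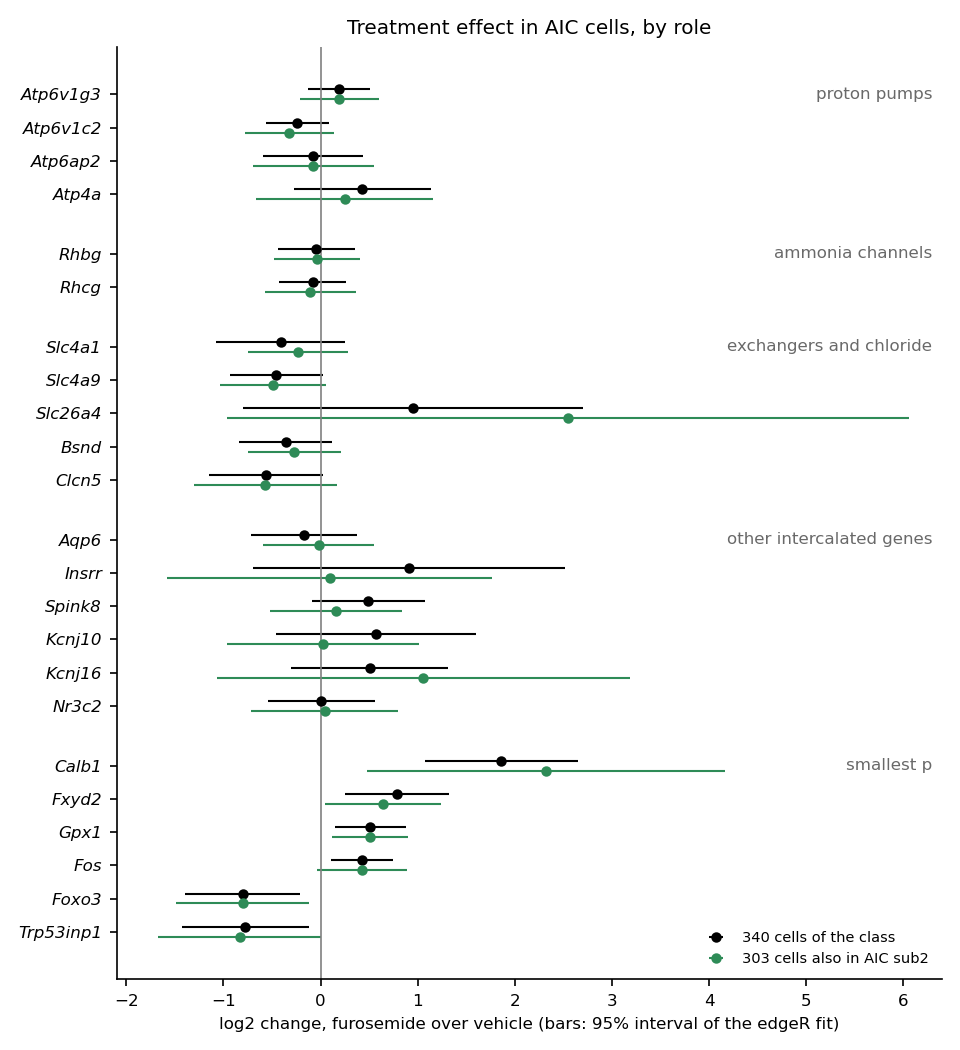
Log2 change, furosemide over vehicle, with 95% intervals of the edgeR fit, for genes grouped by role, over the 340 cells of the class (black) and the 303 AIC sub2 cells (green). Intervals of proton pump, ammonia and exchanger genes include 0, and those of Slc26a4 and Insrr are wide.

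Other genes with the smallest unadjusted p had log2 differences of 0.43 to 0.93 in the higher direction and -0.60 to -1.60 in the lower. Fxyd2, a regulatory subunit of the sodium pump, had 2001, 1331 and 1371 TMM-scaled CPM in furosemide libraries 2, 4 and 6, against 933, 931 and 884 in vehicle libraries 1, 3 and 5 (log2 difference 0.79, adjusted p = 0.551). Gpx1, a glutathione peroxidase, had 10288, 9060 and 10928 TMM-scaled CPM with furosemide, against 7035, 7584 and 6772 with vehicle (0.51, adjusted p = 0.551). Fos, an immediate early gene, had 30302, 26892 and 27943 TMM-scaled CPM with furosemide, against 23054, 21250 and 19561 with vehicle (0.43, adjusted p = 0.551). In these 3 genes all furosemide libraries were higher. That also held for the calcium channel gene Trpv5, with 720, 590 and 445 TMM-scaled CPM with furosemide, against 233, 390.5 and 302 with vehicle (0.93, adjusted p = 0.551). Over AIC sub2 cells the differences were 0.64 for Fxyd2, 0.51 for Gpx1 and 0.43 for Fos (adjusted p = 0.736 each), and Fos overlapped there. Trpv5 was too low to test in those cells, and its libraries overlapped.

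In the lower direction Foxo3, a forkhead factor of the insulin pathway, had 351, 347 and 284 TMM-scaled CPM in furosemide libraries 2, 4 and 6, against 443, 631 and 669 in vehicle libraries 1, 3 and 5 (log2 difference -0.80 ± 0.254 SE, adjusted p = 0.551). Trp53inp1, a p53-induced stress gene, differed by -0.77, the linker histone gene Hist1h1c by -0.60, the CREB coactivator gene Crtc1 by -1.60 and the insulin receptor gene Insr by -1.01. Their adjusted p ran over 0.715 to 0.732. Furosemide libraries were lower throughout in these 5 genes, and Crtc1 rests on 1, 10 and 2 counts with furosemide and 16, 10 and 9 with vehicle. Over AIC sub2 cells Foxo3 differed by -0.80, Trp53inp1 by -0.83, Insr by -0.88 and Hist1h1c by -0.44, the last with overlapping libraries, and Crtc1 was too low to test. Kl, the kidney hormone and coreceptor klotho, was chosen after its values were seen and had 5232, 2546 and 1951 TMM-scaled CPM with furosemide, against 1493, 1216 and 1596 with vehicle (1.20, adjusted p = 0.551), with overlap over AIC sub2 cells (1.61, adjusted p = 0.736). Like Calb1 it stood higher in the connecting tubule-cluster cells (4257 plain CPM) than in AIC sub2 cells (1474).

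None of the 15 gene lists had a called member. Over all 219 tested genes 103 lay above 0 and 116 below, with a median log2 difference of -0.03. Of 11 calcium and magnesium genes in the panel 6 were tested, 4 above 0 and 2 below, with a median log2 difference of 0.70. Of 15 sodium channel and aldosterone genes 14 were tested, 9 above and 5 below (median 0.12). Of 7 iron, antioxidant and creatine genes 6 were tested, 5 above and 1 below (median 0.23), while 3 tested injury genes were all above 0 (median 0.34). The 6 immediate early genes split into 2 above and 4 below (median -0.05), and 5 growth factor genes into 1 and 4 (median -0.38). The 3 tested cell cycle genes were all below 0 (median -0.13). Over AIC sub2 cells some of these counts turned: immediate early genes were 4 above and 2 below (median 0.08) and cell cycle genes 1 above and 2 below (median -0.12). Of all 198 genes tested in AIC sub2 cells, 93 lay above 0 and 105 below. There the median was 1.49 for 5 tested calcium and magnesium genes, 0.51 for 5 iron, antioxidant and creatine genes, 0.14 for the sodium channel list, 0.40 for injury genes and -0.27 for 4 growth factor genes, against -0.02 over all 198 genes. Lists on the IGF axis, water and urea, and prostaglandins and purines had 1 or 2 tested genes each.

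Transcripts of cell division were seen in few cells. Birc5, the mitotic regulator survivin, had a count in 5 and Mki67, a proliferation marker, in 4 of 181 furosemide cells, 8 cells having either and 1 having both. None of 159 vehicle cells had either, which allows a share of up to 1.89% of cells with a count, for counting error alone and with cells of 3 libraries pooled. The highest count in a cell was 2. Of the 156 AIC sub2 cells with furosemide 2 had Birc5 and 3 had Mki67, none both, so the cell with both and 3 of the 5 Birc5 cells were connecting tubule-cluster cells, which numbered 25 with furosemide and 9 with vehicle. Birc5 cells averaged 2.78% of AIC cells with furosemide and 0% with vehicle (exact permutation p = 0.1), and 0.926% with furosemide and 0% with vehicle after thinning to 500 counts (exact permutation p = 0.4). Over AIC sub2 cells the Birc5 means were 1.05% with furosemide and 0% with vehicle (exact permutation p = 0.4). Mki67 cells averaged 2.82% of AIC cells with furosemide and 0% with vehicle (exact permutation p = 0.1). After thinning these Mki67 means were 0.926% and 0% (exact permutation p = 0.4), and over AIC sub2 cells 2.24% and 0% (exact permutation p = 0.1). Proximal s1/s2 cells held Birc5 in 0.929% with furosemide and 1.87% with vehicle, and Mki67 in 0% with furosemide and 0.0726% with vehicle.

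The treatment effect in AIC was set against that in 3 neighbouring classes by edgeR's test of the difference, with the library as a block. Against BIC 1 of 257 genes (0.389%) passed, with 22 (8.56%) at an unadjusted p under 0.05. The gene was Timp3, an inhibitor of matrix metalloproteinases. In AIC it had 346, 600.4 and 531 plain CPM in furosemide libraries 2, 4 and 6, against 499, 462 and 508 in vehicle libraries 1, 3 and 5, which overlapped. In BIC it had 233, 315 and 211 plain CPM with furosemide, against 838, 748 and 844 with vehicle, so that all furosemide libraries were lower. The effects were 0.15 in AIC and -1.60 in BIC, where Timp3 fell (adjusted p = 0.00416). Their difference was a log2 of 1.82 ± 0.228 (SE, adjusted p = 0.0150). It rests on 22 to 52 AIC counts per library and did not pass when any single library other than furosemide library 2 was left out (1.63 to 1.84, adjusted p 0.0662 to 0.229), while without library 2 it was 1.89 (adjusted p = 0.0476). Trp53inp1 (-1.44, adjusted p = 0.144), Rhbg (-0.32, 0.429) and Gpd1, a glycerol phosphate dehydrogenase (-0.49, 0.516), were next in the lower direction and did not pass.

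Against OMCD principal cells, whose counts include Slc4a1 and Aqp6 at levels near those of AIC, 1 of 256 genes (0.391%) passed, with 15 (5.86%) at an unadjusted p under 0.05. It was H2-Aa, a class II antigen-presentation gene of immune cells (adjusted p = 6.24e-05). AIC cells had 313, 0 and 0 H2-Aa counts in furosemide libraries 2, 4 and 6, against 1, 1 and 2 in vehicle libraries 1, 3 and 5, and 310 of the 313 were in 1 cell. OMCD principal cells had 1, 0 and 0 counts with furosemide, against 27, 124 and 146 with vehicle. Without furosemide library 2 the difference did not pass. The tyrosine phosphatase gene Ptpn2 (-0.75), the aldosterone-induced kinase gene Sgk1 (-0.71) and Guca2a (-0.69) came next in the lower direction (adjusted p = 0.713 each).

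Against CCD principal cells 0 of 280 genes (0%) passed edgeR's test, with 23 (8.21%) at an unadjusted p under 0.05. Spp1, which encodes osteopontin, had 52537, 47592 and 59466 plain CPM in AIC in furosemide libraries 2, 4 and 6, against 41461, 49723 and 47776 in vehicle libraries 1, 3 and 5. In CCD principal cells it had 16905, 15117 and 14297 with furosemide, against 20666, 21353 and 25806 with vehicle. The treatments overlapped in AIC and lay apart in CCD principal cells (difference 0.98 ± 0.249 SE, adjusted p = 0.266). Gprc5a, a retinoic acid-induced receptor gene (1.78), and S100a6, a calcium-binding protein gene (3.92, on 0 to 9 AIC counts per library), had the same adjusted p. Trp53inp1 (-1.13), the cytochrome P450 gene Cyp4b1 (-1.73) and Crtc1 (-1.97) had an adjusted p of 0.468.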

How the data were processed

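Kidneys were dissociated and single cells captured on BD Rhapsody beads, with whole-transcriptome and targeted libraries, per the labels' protocols. Bowtie2 2.2.9 is named in the submitters' processing notes. Genome build, counting method and the meaning of a count (molecules or reads) are not given in the sources used here. Deposited values are whole-number counts per cell and gene. The file names say that doublets and mixed cells were taken out by the authors and that cell numbers were made equal, without naming between which groups. Libraries of each treatment averaged 3692.33 cells. The other deposited values, per the file headers, are each cell's library, treatment, class and second clustering. Replicate numbers of the sample titles were not joined to libraries.

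Counts were summed per library over AIC cells. Plain CPM divide by the total of the sum, and TMM-scaled CPM also by edgeR's scaling factor. Sums were fitted with edgeR 4.0.16 in R 4.3.3 (filterByExpr, robust quasi-likelihood), with Benjamini-Hochberg adjustment over all genes tested. Differences between classes were interactions with the library as a block. Log2 values are furosemide over vehicle. Shares used two-sided exact permutation over 20 assignments. Alternatives used DESeq2 1.42.0, limma 3.58.1, other scaling, no filter, thinning to 500 counts (6 cells left out), 35 cells per library, and other sets of cells. The test was run on simulated counts of 219 genes, where 2 of 165 unchanged genes were called.

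Genes named are the 4 label markers, all panel members of the acid-base lists, the 5 of smallest p in each direction, the 15 of highest ratio to other classes and the leading differences between classes. Marker genes of other cell types are also named. A few genes taken by this rule are not reported here. The class, its markers, lists and tests were chosen with earlier results of these data known.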

Additional observations from a re-analysis of the deposited data

Results flagged for a closer look

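Timp3 is listed because its treatment effect differed between AIC and BIC (log2 difference 1.82, edgeR's interaction test, adjusted p = 0.0150). AIC libraries overlapped between treatments and BIC libraries did not. With each cell thinned to 500 counts the difference was 1.27 (adjusted p = 0.501), and Id3, an inhibitor of differentiation factors, passed in its place (1.69, adjusted p = 0.0233).

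H2-Aa is listed because its treatment effect differed between AIC and OMCD principal cells (edgeR's interaction test, adjusted p = 6.24e-05). The fitted difference is no bound, since several libraries had 0 counts. In AIC 99.0% of the counts of furosemide library 2 were in 1 cell, and in OMCD principal cells 123 of 124 counts of vehicle library 3 and 144 of 146 of vehicle library 5 were in 1 cell each. One AIC cell of furosemide library 2 also held 121 Cd74 counts, and 47 of the 49 Lyz2 counts of that library were in 1 cell. Without that library the H2-Aa difference was 4.98 (adjusted p = 1.0).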

How the results depend on the processing

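No paired analysis was possible because the library numbers carry no replicate number of the sample titles. The count of AIC genes called was 1 under DESeq2, with thinned cells and without the 10% of cells highest in other markers, Calb1 each time, and 0 under every other setting, leaving out each library included (0 to 0). Leaving out 1 library gave 0 to 1 gene for the difference against BIC, with 0 without each library except furosemide library 2, and 0 to 2 against OMCD principal. That count was 2 with library size alone (Cd74 added), without a filter (Lyz2 added) and with thinned cells (Fos added). The log2 ratio of AIC shares was -0.0033 without TAL cells and -0.050 to 0.38 without 1 library. It was -0.24 over every cell named AIC in the second clustering, cells of other classes included. Over the cells of the class AIC in those clusters alone it was 0.087. The furosemide minus vehicle difference in cells holding Aqp6 was -1.43 percentage points with thinned cells and -0.30 to 3.22 without 1 library.

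Of 586 alternatives for 27 named genes, 555 kept direction and side of the threshold. No gene passed in the main fit and all alternatives reuse the same libraries, so this count is no independent check. Signs turned for Rhbg (0.015) and Atp6ap2 (0.028) with equal cell numbers. Nr3c2 gave -0.13, -0.012 and -0.087 with library size alone, no filter and equal cells. Without 1 library, ranges were -0.34 to 0.040 for Aqp6, -0.17 to 0.026 for Rhbg, -0.35 to 0.037 for Atp6ap2 and -0.13 to 0.22 for Nr3c2. Over AIC sub2 cells without 1 library, an alternative added after seeing the data, turned values were 0.18 (Aqp6), 0.055 and 0.019 (Rhbg), 0.041 (Atp6ap2), -0.26 (Atp4a), 0.014 (Rhcg), -0.15 (Slc26a4), -0.30 and -0.35 (Insrr), -0.21 (Spink8), -0.099, -0.23 and -0.23 (Kcnj10) and -0.27 and -0.093 (Nr3c2). Library size alone moved the median of all genes to -0.17, against -0.03. The cause was not tested, and none of these genes passed in either direction. With 35 to 75 AIC cells per library, depth limits every low gene.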

Other observations

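Cells with a type A profile were also found under another class name. The cluster AIC sub2 held 303 AIC cells with a median of 888 counts and 132 OMCD principal cells with a median of 949. Over pooled counts, Slc4a1 stood at 41057 plain CPM in the AIC cells of that cluster and 58449 in its OMCD principal cells. Aqp6 stood at 33254 plain CPM in these AIC cells and 71069 in the OMCD principal cells, and Slc26a4 at 539 in the AIC cells and 50.02 in the OMCD principal cells. S100g stood at 63279 plain CPM in the AIC cells and 2944 in the OMCD principal cells, and Calb1 at 6532 in the AIC cells and 100.05 in the OMCD principal cells. Fxyd4, a sodium pump regulator of the collecting duct, stood at 506 plain CPM in the AIC cells and 8983 in the OMCD principal cells. These are descriptions of clusters built from the same counts and were not tested.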
